A study of Homo sapiens with 6 samples.

Results

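BIN1, BIN2, BIN3 and AMPH make up the amphiphysin family, and the 4 genes were chosen by name out of 56303 gene symbols in the count table. All 4 had a row in that table. Of the 1582 records in the authors' table of splicing events, 4 carried a name of the family, and all 4 were records of BIN1. BIN1 was taken up because its listed inclusion levels were already known to differ widely between the groups of that table, so its levels and its splicing are given here as a description with no test. BIN2, BIN3 and AMPH were included because they belong to the same family.

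RNA was taken from SW480 cells, a line established from a human colon adenocarcinoma, grown in RPMI-1640 with fetal bovine serum. Of the 6 mRNA libraries, 3 came from cells with a non-silencing short hairpin RNA (shCtrl) and 3 from cells with a hairpin against the splicing factor RBM39 (shRBM39). Both hairpins were delivered by lentivirus and the cells were selected with puromycin according to the study's methods, so every library comes from infected and selected cells. The methods speak of stable clonal lines and of 3 replicate experiments per group, and how many clones or hairpins stood behind a group is not given in the sources used here.

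Amphiphysins carry an N-terminal BAR domain, a curved bundle of helices that binds and bends membranes. Some of them, AMPH and BIN1 here, end in an SH3 domain that binds dynamin and synaptojanin. AMPH is the neuronal founder of the family and acts in the recycling of synaptic vesicles, BIN2 is known mainly from blood cells, and BIN3, the smallest, lacks the SH3 domain. BIN1 is the widely expressed member, and its transcript is spliced differently in muscle, in brain and in other tissues. Its muscle form shapes T-tubules, its brain forms contain a clathrin- and AP2-binding insert, and a further segment encodes the domain through which BIN1 binds MYC and restrains it. In cancer cells, inclusion of the first exon of the brain insert is known to weaken this tumour-suppressing activity, and the factor SRSF1 is known to favour that inclusion.

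Total counts ran from 18042924 to 20428901 per library. RBM39, the targeted gene, had 441, 448 and 435 CPM (counts relative to the library total, with TMM scaling) in shCtrl and 266, 276 and 292 CPM in shRBM39, a difference of -0.67 ± 0.04 (SE) on the log2 scale, with an adjusted p of 1.24e-16 (edgeR, Benjamini-Hochberg over all tested genes). Of the 6 epithelial genes fixed as a marker list, EPCAM, KRT8, KRT18 and VIL1 had means of at least 591 CPM in both groups, KRT20 was at 0.31 and 1.12 CPM in shCtrl and shRBM39, and the intestinal factor CDX2 was at 21.7 and 4.95 CPM, and the part of these markers in the results was not tested. The 5 blood cell markers summed to between 0.407 and 0.893 CPM in any library, with PTPRC at 0. Of the 5 neuronal markers, SYT1 had means of 58.2 and 34.0 CPM in shCtrl and shRBM39 and TUBB3 had 32.1 and 71.5 CPM, and RBFOX3, SYN1 and SNAP25 had at most 6 counts in any library. The 5 markers of striated muscle summed to between 3.02 and 7.09 CPM. Of these, DES had means of 2.93 and 5.77 CPM in shCtrl and shRBM39, without overlap between the groups. ACTA1 and MYH7 had at most 10 counts in any library, and CKM and MYOG were at 0. In bulk RNA, fewer cells of one kind and less RNA per cell cannot be told apart.

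The 4 splicing records of BIN1 lie in 1 stretch of the gene (chromosome 2, 127048027 to 127107288, minus strand, GRCh38). All of them start from exon 11 of the 19 exons of the canonical GENCODE v44 transcript, and they involve exon 12 (127057473 to 127057601), exon 16 (127051154 to 127051243) and exon 17 (127050802 to 127050912), all of them coding. Exon 12 is the first exon of the brain insert and is widely called exon 12A, and exons 16 and 17 encode the MYC-binding segment. Exon 12 spans 129 bases or 43 codons and exon 16 spans 90 bases or 30 codons, so either can be left out without a shift of the reading frame. The 4 chains from exon 11 to exon 17 that these exons alone can form, with both exons, either one or neither, were 475, 385, 346 and 256 bases long. Each held 0 in-frame stop codons.

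The sequences of both exons are shown because the records turn on them. Each is written 5′ to 3′ in the sense of the transcript from GRCh38, with the exon in capitals, 30 bases of the intron before it and 20 bases of the intron after it in lower case.
Exon 12 (chr2:127057453-127057631, minus strand): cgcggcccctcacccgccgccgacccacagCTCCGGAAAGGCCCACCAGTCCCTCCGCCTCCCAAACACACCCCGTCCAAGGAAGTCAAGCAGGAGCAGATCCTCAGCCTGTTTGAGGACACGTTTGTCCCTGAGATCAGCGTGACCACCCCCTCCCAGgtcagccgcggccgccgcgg
Exon 16 (chr2:127051134-127051273, minus strand): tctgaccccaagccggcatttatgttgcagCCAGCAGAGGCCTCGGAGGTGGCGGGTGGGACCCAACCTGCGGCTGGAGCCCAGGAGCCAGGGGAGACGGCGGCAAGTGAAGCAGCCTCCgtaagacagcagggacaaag

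A read must cross a junction to be counted for a skipping form, and reads within an exon can also be counted for its inclusion. The junctions are shown with the last 20 bases of the upstream exon in lower case and the first 20 bases of the downstream exon in capitals.
Exons 11 and 12: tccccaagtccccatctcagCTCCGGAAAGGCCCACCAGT
Exons 11 and 16: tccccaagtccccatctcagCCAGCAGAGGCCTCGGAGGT
Exons 11 and 17: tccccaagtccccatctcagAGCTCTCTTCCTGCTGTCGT
Exons 12 and 16: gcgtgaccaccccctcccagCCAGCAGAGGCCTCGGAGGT
Exons 12 and 17: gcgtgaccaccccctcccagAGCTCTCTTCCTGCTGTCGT

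Of the 11 protein-coding BIN1 transcripts in GENCODE v44, 4 hold both exon 12 and exon 16, 5 hold exon 16 without exon 12 and 2 hold neither. A transcript with exon 12 but without exon 16 is not among the 11, so the direct junction of exons 12 and 17 that the table counts is used by 0 of them. The direct junctions of exons 12 and 16, of exons 11 and 16 and of exons 11 and 17 are each used by 2 of them. Exons 13, 14 and 15 of the canonical transcript, the rest of the brain insert, appeared in none of the 4 records.

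**Figure D1:**
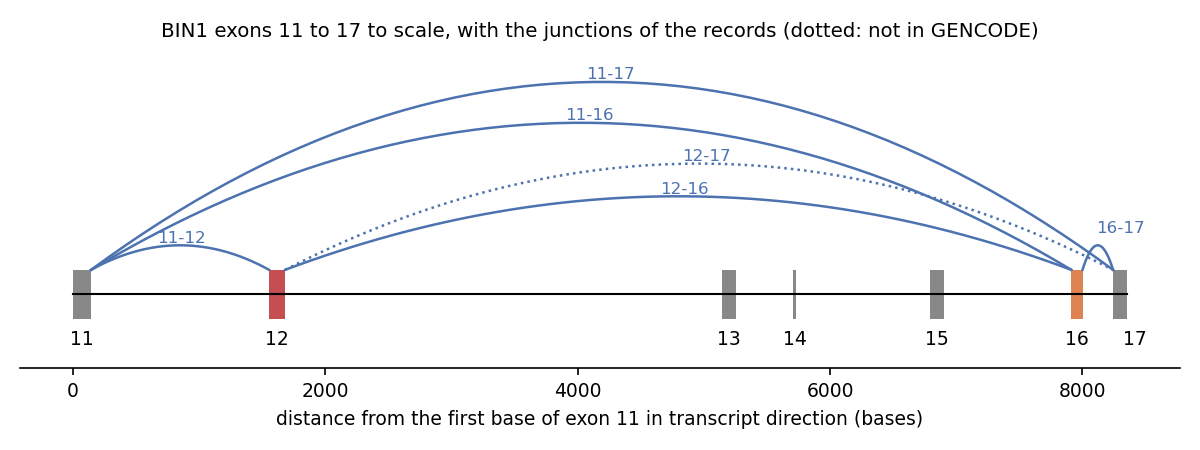
Exons 11 to 17 of BIN1 drawn to scale along the gene, with distance in bases from the first base of exon 11 on the horizontal axis. Arcs mark the junctions on which the records rest, exon 12 is red and exon 16 orange, and the dotted arc from exon 12 to exon 17 is the one used by 0 of the 11 annotated protein-coding transcripts.

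The authors' table of splicing events names its sides only as group 1 and group 2, each with 3 values, and gives no key to the hairpins. Its values are therefore printed in those terms, and no direction with respect to RBM39 is read from them. A listed inclusion level runs from 0 to 1 and is the share of the inclusion form among the inclusion and skipping forms of that record. It is corrected for the length over which each form can be read. Inclusion reads on the exon or on a shared junction can also come from other forms of the gene that hold that exon.

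Exon 12 was included far more often in group 1 than in group 2. When the flanking exons were 11 and 17, exon 12 stood at 0.756, 0.703 and 0.712 for group 1 and at 0.257, 0.365 and 0.265 for group 2. With exon 16 as the downstream exon, group 1 had levels of 0.638, 0.624 and 0.601, and group 2 had 0.225, 0.296 and 0.264. In both records every value of group 1 lay above every value of group 2, with gaps of 0.338 and 0.305 between the nearest values. The medians were 0.712 against 0.265 in the first record and 0.624 against 0.264 in the second. Neither record counts both junctions that leave out exon 12, so these levels are not shares of all BIN1 transcripts.

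In the record with exons 11 and 17, group 1 had 99, 85 and 74 reads for inclusion and 16, 18 and 15 for skipping, and group 2 had 31, 39 and 28 for inclusion and 45, 34 and 39 for skipping. In the record with exons 11 and 16, group 1 had 130, 96 and 93 reads for inclusion and 37, 29 and 31 for skipping, while group 2 had 40, 47 and 35 for inclusion and 69, 56 and 49 for skipping. Both counts moved, with more inclusion reads and fewer skipping reads in every library of group 1. The smallest number of reads in any library was 67 in the first record and 84 in the second, against a median of 10 over the 1263 skipped exon (SE) records.

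Exon 16, which belongs to the MYC-binding segment, also had higher listed levels in group 1, but by less. Between exons 11 and 17 it stood at 0.754, 0.694 and 0.772 for group 1 and at 0.563, 0.646 and 0.56 for group 2, with medians of 0.754 and 0.563. The groups did not overlap, and the nearest values were 0.048 apart. Inclusion reads of exon 16 numbered 83, 69 and 86 for group 1 and 98, 105 and 84 for group 2, and the skipping reads were those of the junction of exons 11 and 17 given above. Inclusion reads of exon 16 thus overlapped between the groups, while its skipping reads did not.

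The fourth record lists exons 12 and 16 as mutually exclusive, which in BIN1 is a way of counting and not the annotated arrangement, since 4 annotated transcripts hold both. The level of exon 12 in place of exon 16 came to 0.503, 0.511 and 0.422 for group 1 and to 0.212, 0.24 and 0.221 for group 2. Its reads for exon 12 were the inclusion reads of the exon 12 record, and its reads for exon 16 were those of the exon 16 record, number for number. The skipping reads of exon 12 and of exon 16 between exons 11 and 17 were also identical. The 4 records are therefore views of overlapping reads and not 4 measurements.

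Levels did not overlap between the groups in 4 of 4 BIN1 records, where 57.5% of the 1582 listed records showed no overlap and 16.8% showed none with the higher levels in group 1. Nothing is read from this count, because every record had been selected by the authors for its difference and BIN1 was chosen for its levels. Among the 1263 SE records, 346 were higher in group 1. Ordered by the difference in mean level toward group 1, the BIN1 records stood at place 36 and 69 for exon 12, with differences of 0.428 and 0.359, and at place 257 for exon 16, with 0.15.

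**Figure D2:**
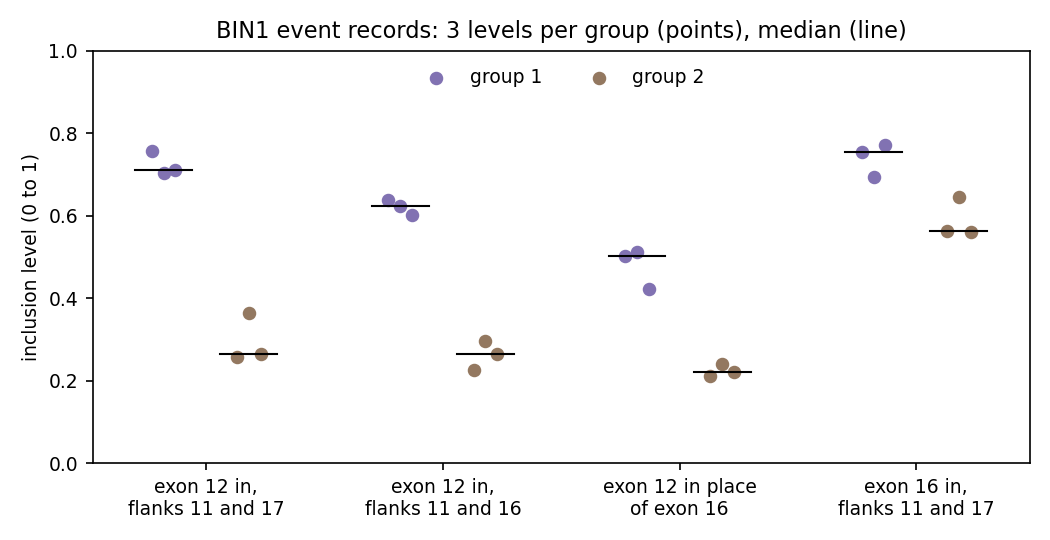
Listed inclusion levels of the 4 BIN1 records on a scale from 0 to 1, with the 3 values of group 1 and of group 2 as points and their median as a line. In each record the 3 values of group 1 lie above those of group 2, with the widest gap, 0.338, for exon 12 between exons 11 and 17 and the narrowest, 0.048, for exon 16.

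Because the records share reads, single junctions could be separated. Reads that joined exon 11 directly to exon 16 numbered 37, 29 and 31 in group 1 and 69, 56 and 49 in group 2, and reads that joined exon 11 directly to exon 17 numbered 16, 18 and 15 against 45, 34 and 39. Both junctions that leave out exon 12 were thus lower in every library of group 1. Of all such reads, those that went to exon 16 made up 69.8%, 61.7% and 67.4% in group 1 and 60.5%, 62.2% and 55.7% in group 2. These shares overlapped between the groups.

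Pooled over the libraries, 97 of 146 reads that skipped exon 12 went to exon 16 in group 1, or 66.4% (95% Wilson interval 58.4% to 73.6%), and 174 of 292 in group 2, or 59.6% (53.9% to 65.1%). The intervals cover counting error only, not the spread between libraries, and no difference between the groups was tested. Reads on exon 16 other than those on its junction with exon 11 numbered 46, 40 and 55 in group 1 and 29, 49 and 35 in group 2.

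**Figure D3:**
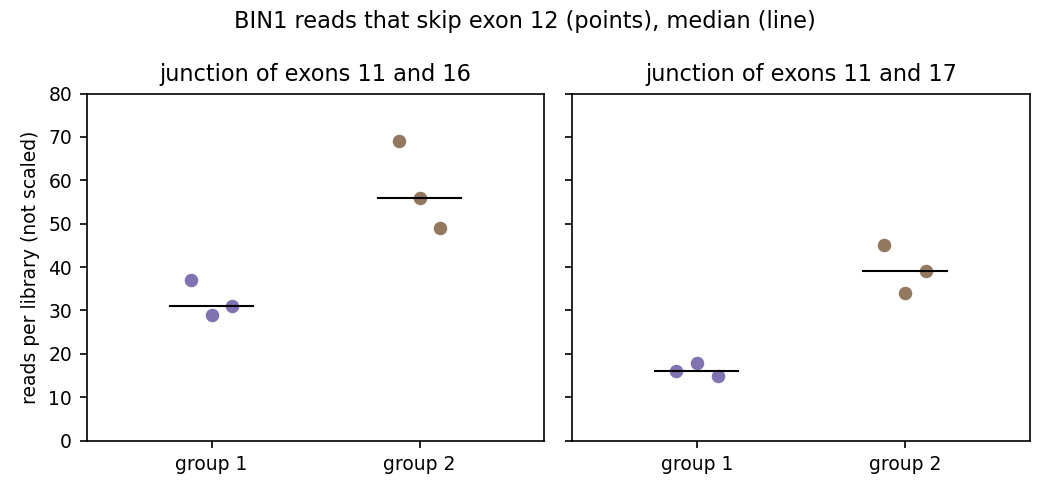
Reads per library, not scaled for depth, on the 2 BIN1 junctions that leave out exon 12, with 3 values per group as points and their median as a line. The 3 values of group 1 lie below those of group 2 on both junctions, 29 to 37 against 49 to 69 reads for exons 11 and 16 and 15 to 18 against 34 to 45 reads for exons 11 and 17.

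The inclusion reads of exon 12 in its 2 SE records differ only in the downstream junction, if the reads on exon 12 and on its upstream junction were counted alike in both. Their difference, the reads joining exon 12 to exon 16 less those joining it to exon 17, was 31, 11 and 19 in group 1 and 9, 8 and 7 in group 2. On that condition, the annotated junction of exons 12 and 16 was the more frequent of the pair in all 6 libraries. How many reads crossed the unannotated junction of exons 12 and 17 cannot be separated in this table, since reads within exon 12 are counted with them.

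The exons were then described by their sequence beside the 1208 distinct exons of the SE records. Exon 12 had a GC content of 61.2%, higher than in 81.8% of the listed exons, and exon 16 had 72.2%, higher than in 99.1% of them, where the median was 50.0%. In the last 20 intron bases, where U2AF binds a run of pyrimidines, 60% were pyrimidines before exon 12 and 50.0% before exon 16. The median of the listed exons was 70.0%, and the value before exon 16 was above that of only 3.48% of them. Among the 17 internal exons of BIN1, with shares from 50.0% to 80%, that of exon 16 was the lowest, and exon 11 had 80%. Of the listed exons, 47.0% had a length that is a multiple of 3, as exons 12 and 16 do.

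Motifs of factors known to bind BIN1 or similar transcripts were searched on the transcript strand only. The letters GGAGA, a purine motif bound by SRSF1, occurred 0 times in exon 12 and 1 time in exon 16, and 21.4% of the 429 listed exons within 30 bases of the length of exon 12 held it. Exon 16, with 90 bases, is shorter than these exons of 99 to 159 bases, so the share is no match for it. TGCT or CGCT, core letters bound by muscleblind proteins, lay within 100 bases before and within 100 bases after both exons, as was the case for 47.3% and 46.9% of the listed exons. A match of letters is a description and not a binding site.

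The levels of the whole genes were compared next, in libraries whose hairpin is known. Per length of merged exons, BIN1 was the most abundant member, with 36.2, 34.6 and 35.6 RPKM in shCtrl and 33.5, 36.0 and 35.5 RPKM in shRBM39. BIN3 followed with 6.92, 7.11 and 6.94 RPKM in shCtrl and 11.06, 10.54 and 10.75 RPKM in shRBM39. AMPH and BIN2 stayed at or below 0.0363 and 0.0276 RPKM in every library, and their ranges overlapped, so their order is not resolved. The order BIN1, BIN3 and then the other two held in all 6 libraries.

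The level of BIN1 mRNA overlapped between the hairpins. BIN1 had 4896, 4851 and 4795 counts in shCtrl and 4748, 4500 and 4977 in shRBM39. After TMM scaling these were 243, 229 and 236 CPM in shCtrl, a mean of 236 ± 7.22 (SD, n = 3), and 242, 261 and 257 CPM in shRBM39, a mean of 254 ± 9.98 (SD, n = 3). The first shRBM39 library lay among the shCtrl values, so the groups overlapped. The fitted log2 fold change was 0.105 with a standard error of 0.04, an absolute value larger than that of 18.8% of the tested genes. Its sign rests on the scaling, since it was -0.02 with library totals alone and in both fits on log2 RPKM. In GENCODE v44, 0 other genes overlap BIN1.

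BIN3, a widely expressed member with a BAR domain and no SH3 domain, was higher in shRBM39. Its counts were 686, 729 and 684 in shCtrl and 1146, 965 and 1103 in shRBM39. They correspond to 34.0, 34.3 and 33.7 CPM in shCtrl, a mean of 34.0 ± 0.339 (SD, n = 3), and to 58.5, 56.1 and 57.0 CPM in shRBM39, a mean of 57.2 ± 1.23 (SD, n = 3). All values of shRBM39 lay above all values of shCtrl. On the log2 scale BIN3 rose by 0.75 ± 0.05 (SE, edgeR adjusted p 1.65e-15), or 68.1%. Beside this, 59.1% of the 18243 tested genes were called in either direction, 29.2% were called as higher and 29.9% as lower in shRBM39, and the CPM of the groups did not overlap in 63.3%. The absolute change of BIN3 was larger than that of 87.1% of the tested genes.

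BIN3 (chromosome 8, 22620418 to 22669148, minus strand, GRCh38, 9 exons in the canonical transcript) overlaps the end of CCAR2 on the other strand by 547 bases. CCAR2, a regulator of transcription and splicing, was also higher, with 148, 151 and 148 CPM in shCtrl and 187, 200 and 189 CPM in shRBM39, which is 0.365 ± 0.04 (SE) on the log2 scale (edgeR adjusted p 3.61e-10). The kit keeps the strand, but whether the counting used it is not given in the sources used here, and the part of shared reads in the value of BIN3 was not tested.

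**Figure D4:**
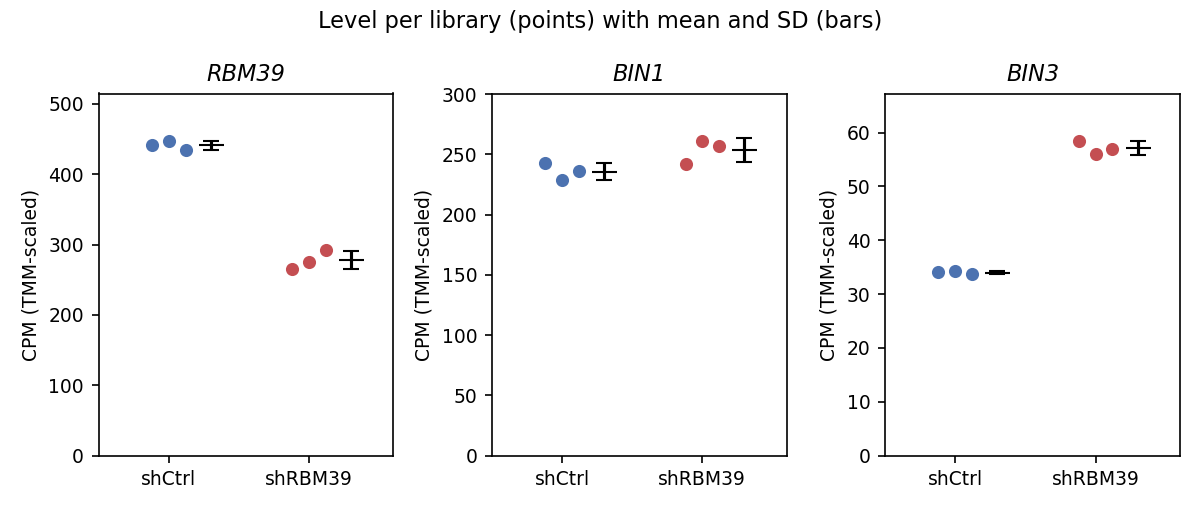
TMM-scaled CPM of RBM39, BIN1 and BIN3 in each of the 3 shCtrl (blue) and 3 shRBM39 (red) libraries, with the mean and SD of each group as bars and each axis starting at 0. The values of BIN3 rise from 33.7 to 34.3 CPM in shCtrl to 56.1 to 58.5 CPM in shRBM39, those of BIN1 overlap, and those of RBM39 fall.

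The other two members were barely detected. BIN2 (chromosome 12, 51281038 to 51324668, 13 exons) had 1, 1 and 0 counts in shCtrl and 1, 2 and 1 in shRBM39, and AMPH (chromosome 7, 38383704 to 38631420, 21 exons) had 4, 2 and 3 counts in shCtrl and 0, 0 and 3 in shRBM39. Neither passed the filter on low counts, so 2 of the 4 members could be fitted. With no filter, the edgeR adjusted p was 0.597 for BIN2 and 0.367 for AMPH among 33685 genes, and no difference was detectable at this depth. In the same libraries the 5 blood markers had at most 13 counts each. The 5 neuronal markers summed to between 83.99 and 107.6 CPM per library, nearly all of it from SYT1 and TUBB3, while RBFOX3, SYN1 and SNAP25 were near 0.

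The genes with the most similar profile over the 6 libraries were sought among 12057 others with a mean of at least 5 CPM, by the root mean square difference of log2 CPM centred on each gene. Nearest to BIN1 were TMEM50B at 0.0131, GPR89A at 0.0171 and TRIB1 at 0.0176, with log2 fold changes of 0.09, 0.09 and 0.13. Nearest to BIN3 were a gene listed under a clone name at 0.0171, NME1 at 0.018 and TARDBP at 0.0182, with log2 fold changes of 0.755, 0.74 and 0.74. The same genes came out nearest on log2(RPKM + 0.1).

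The other genes that encode BAR domains were compared as a list of 16, of which 14 could be tested. In shRBM39, 5 were higher, 4 were lower and 5 were not called, near the 59.1% of all tested genes that were called, with a median log2 fold change of -0.007 beside -0.014 over all tested genes. The fold changes ran from -0.46 to 0.41, short of the 0.75 of BIN3. The largest fall was that of SH3GLB1 (endophilin B1), at -0.46 (standard error 0.05, edgeR adjusted p 6.16e-09), from 38.9 ± 1.9 to 28.3 ± 0.656 CPM (SD, n = 3). The largest rise was that of PICK1, a scaffold with a PDZ and a BAR domain, at 0.41 (standard error 0.07, edgeR adjusted p 1.15e-05). The neuronal endophilins SH3GL2 and SH3GL3 had 0 counts in all libraries.

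All 18 partners of amphiphysins in clathrin-mediated endocytosis were expressed highly enough to be tested. Of these, 7 were higher, 6 were lower and 5 were not called, where 29.2% of all tested genes were higher and 29.9% lower, and the median log2 fold change was -0.006. Of the subunits of the AP2 adaptor, which links clathrin to membranes, AP2S1 rose by 0.51 and AP2M1 by 0.43. The other subunits, named after their values were seen, were AP2B1, called at 0.175, and AP2A1 and AP2A2, not called at 0.07 and 0.04. The call of AP2B1 was lost with library totals alone, at 0.05, and in both fits on log2 RPKM. The clathrin heavy chain gene CLTC rose by 0.38 (standard error 0.04, edgeR adjusted p 1.24e-10). Of the dynamins, the GTPases that amphiphysins recruit, DNM1 fell by 0.37 and DNM3, with means of 0.459 and 0.599 RPKM the least abundant per length, rose by 0.505. DNM2, also named after its value was seen, was called at -0.15. The call of DNM3 was lost in both fits on log2 RPKM.

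Of the 6 genes listed for proteins that bind BIN1, 3 were higher, 1 was lower and 2 were not called, near the 59.1% called over all tested genes, with a median log2 fold change of 0.22. MYC, whose protein binds the segment that exons 16 and 17 encode, had 340, 363 and 329 CPM in shCtrl and 181, 176 and 172 CPM in shRBM39, with no overlap. Its log2 fold change was -0.96 (standard error 0.04, edgeR adjusted p 1.46e-20), so that MYC mRNA fell by 48.7%. PARP1, a DNA repair enzyme, rose by 0.45, the lipid phosphatase gene MTM1 by 0.40 and the sorting nexin gene SNX4 by 0.32, of which MTM1 and SNX4 were not called on log2 RPKM. MAPT and RIN3, named after their values were seen, were not called, at 0.11 and 0.07.

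Factors described as acting on BIN1 splicing numbered 7, of which 4 were called higher and 3 lower, where 29.2% and 29.9% of all tested genes were, and their median log2 fold change was 0.15. SFPQ and MBNL1 are named beyond the largest 5 after their values were seen. DHX9, an RNA helicase described in a complex with NONO and SFPQ, had 153, 155 and 156 CPM in shCtrl and 325, 337 and 340 CPM in shRBM39. Its log2 fold change was 1.11 (SE 0.04, edgeR adjusted p 6.2e-23). NONO was called at -0.18 and SFPQ at 0.155. The muscleblind gene MBNL2 had 24.8, 23.9 and 24.7 CPM in shCtrl and 11.1, 10.3 and 12.2 CPM in shRBM39, or -1.13 ± 0.07 (SE) on the log2 scale (edgeR adjusted p 3.32e-15).

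MBNL3, with means of 0.213 RPKM in shCtrl and 0.0918 RPKM in shRBM39, was at -1.08 (standard error 0.22, edgeR adjusted p 8.15e-05), a call lost in the fit on log2(RPKM + 0.1). MBNL1 was at 0.153. SRSF1 rose by 0.305 (standard error 0.04, edgeR adjusted p 2.62e-08), from 354 ± 14.7 to 437 ± 15.5 CPM (SD, n = 3). SFPQ and MBNL1 lost their calls with library totals alone, each at 0.03, and in both fits on log2 RPKM. MBNL1 also lost its call without shCtrl replicate 3 or shRBM39 replicate 1, at 0.11 and 0.13. Library totals moved the median of all tested genes by -0.12.

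**Figure D5:**
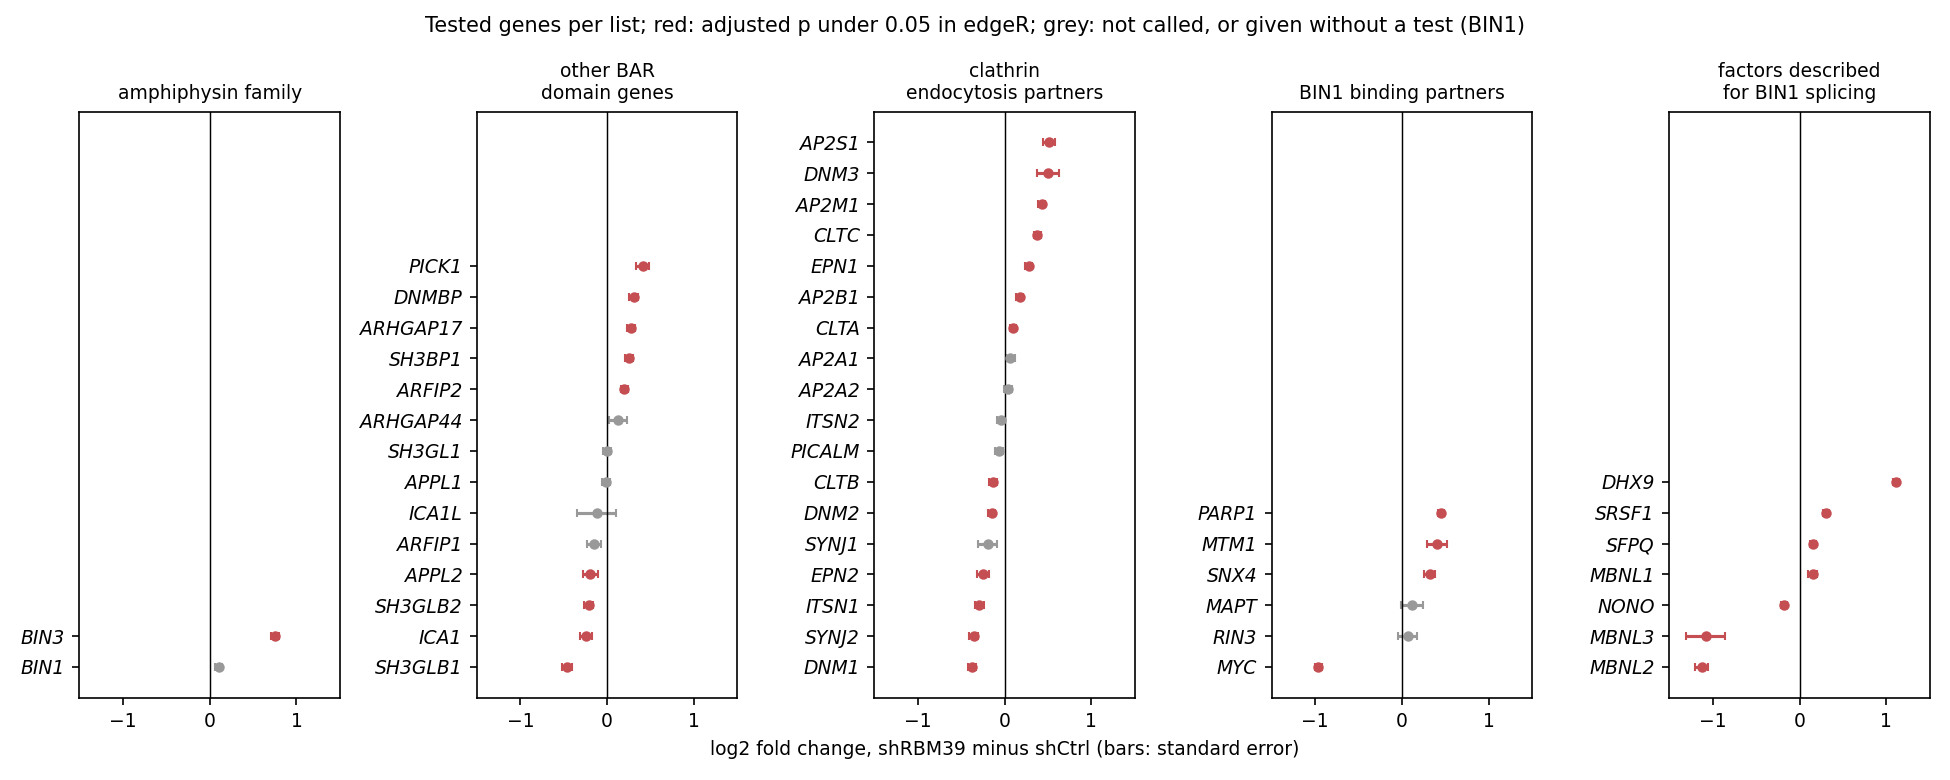
Log2 fold changes (shRBM39 minus shCtrl) of the tested genes of the family and of 4 lists, with standard errors as bars and calls at an edgeR adjusted p under 0.05 in red. BIN1, given without a test, lies near 0 and BIN3 at 0.75, BAR domain and endocytosis genes spread around 0, and MYC, MBNL2 and MBNL3 lie near -1 while DHX9 lies above 1.

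Splicing records were also looked up for the genes of these lists, all of them named here after their values were seen. None of the 7 factors described for BIN1 splicing had a record, 4 of the other BAR domain genes and 5 of the endocytosis genes had 1 each, and RIN3 was the 1 BIN1 partner with a record. DNM2 had the deepest, with at least 277 reads in each library on an exon of 12 bases (chromosome 19, 10808569 to 10808580), where group 1 stood at 0.953, 0.961 and 0.958 and group 2 at 0.852, 0.837 and 0.878. As in BIN1, inclusion in DNM2 was higher in group 1, though the difference was 0.10 against 0.43 for exon 12 of BIN1. The smallest absolute difference in mean level among all listed records was 0.1, so the record of DNM2 lies near that lower end.

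The clathrin light chain gene CLTA went the other way at an exon of 38 bases (chromosome 9, 36197551 to 36197588), with 0.722, 0.735 and 0.786 in group 1 and 0.867, 0.911 and 0.828 in group 2. PICALM, an adaptor of clathrin, had 0.812, 0.895 and 0.774 in group 1 and 0.917, 0.984 and 0.982 in group 2 at an exon of 60 bases (chromosome 11, 85976623 to 85976682). ICA1, APPL2 and ARHGAP44 were also lower in group 1 without overlap, by differences in mean level of -0.16, -0.21 and -0.20, and DNM1 was lower with overlap, by -0.14. The record of ARHGAP44 had a minimum of 11 reads per library. Over all listed records, each selected by the authors for its difference, 57.5% showed no overlap. The records of ARFIP2, EPN1 and RIN3 had minima of 1, 5 and 1 reads per library and overlapped between the groups.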

How the data were processed

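Of the 6 SW480 libraries, 3 were shCtrl and 3 shRBM39, grouped by their labels; columns named NC were read as shCtrl. The authors deposited raw read counts per gene, RPKM values per gene, and a table of selected splicing events with read counts and inclusion levels as fractions. The submitters' processing notes name Trimmomatic 0.36, STAR 2.5.3a, Subread 1.5.1 with featureCounts, edgeR 3.12.1 and GRCh38. The version of the splicing tool is not given in the sources used here. The event table's p-value, FDR and difference columns, the authors' own comparison, were not used.

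Counts were tested in R 4.3.3 with edgeR 4.0.16 (filterByExpr, TMM, quasi-likelihood test, Benjamini-Hochberg over 18243 genes, threshold 0.05). CPM were TMM-scaled, and ± gives the SD. DESeq2 1.42.0 and limma 3.58.1 on log2(RPKM + 1) or log2(RPKM + 0.1) served as alternatives, beside other scalings, filters, the replicate block and leaving out each library. The edgeR script was tested on simulated data. Event levels, recomputed from the reads within 0.0005, received no test. Sequences were read from GRCh38 with pysam 0.24.0 and annotated with GENCODE v44.

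Members and lists were chosen with earlier results of these data known. Named genes were the members, RBM39, up to 5 called genes per list by absolute log2 fold change, and the 3 nearest profiles to BIN1 and to BIN3; genes named beyond this are marked. Of the 5 BAR domain genes that this rule names, 3 are not reported here. Depth was 18042924 to 20428901 counts per library, and replicates differed by more than sampling noise (chi-square per degree of freedom 2.11 to 4.21). The methods speak of replicate experiments without saying whether these were separate cultures, so p-values measure only the spread between these samples, which may be technical.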

Additional observations from a re-analysis of the deposited data

How the results depend on the processing

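The BIN1 log2 fold change of 0.105 turned to -0.019 with library totals alone, -0.018 on log2(RPKM + 1) and -0.019 on log2(RPKM + 0.1), and ran from 0.082 to 0.14 when 1 library was left out. Those settings moved the median of all tested genes by -0.123, -0.067 and -0.114, and the share of calls that were higher in shRBM39 from 49.4% to 33.9%, 34% and 34%. CLTA turned to -0.027, -0.026 and -0.027. Called BIN1 partners went from 4 to 2 in both fits on log2 RPKM, and called splicing factors from 7 to 4 on log2(RPKM + 0.1); the cause was not tested. BIN3 was called under every alternative run, at 0.56 to 0.767, and at 0.736 to 0.767 when 1 library was left out. For exon 12 of BIN1, the difference in mean inclusion level (group 1 minus group 2) ran from 0.386 to 0.463 between exons 11 and 17. It ran from 0.341 to 0.377 between exons 11 and 16. The ranges were 0.12 to 0.178 for exon 16 and 0.238 to 0.283 for exon 12 in place of exon 16. Nothing is read from the constant sign. BIN1 was chosen for these levels, and its groups overlapped in no record, so leaving out a value could not change the sign.

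Replicate numbers did not pair the libraries, with correlations of deviations of 0.00612, -0.0282 and 0.000114 for numbers 1, 2 and 3. With the replicate block, 10810 genes were called where 10790 were without it, BIN1 was at 0.104 and BIN3 at 0.749. Event reads of 67 to 182 per library limit the precision of the inclusion levels, and the table does not tie its groups to hairpins.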
